A study of Mus musculus with 40 samples.

Results

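The loss of Ctbp1 and Ctbp2 in mouse embryonic stem cells was described by comparing 2 libraries labelled CtbpDKO with 2 libraries labelled WT, 4 of the 40 samples of the series. The members are fixed by the labels and by no measured value. All cells are E14tg2a, a feeder-independent male mouse embryonic stem cell line that lacks a working Hprt gene, kept undifferentiated by leukaemia inhibitory factor (LIF) in serum-containing GMEM. WT is the unmodified line and CtbpDKO carries the knockout of both Ctbp genes. Libraries labelled DuxKO (knockout of Dux) and Ctbp_DuxTKO (knockout of both Ctbp genes and Dux) are used to show the same genes in other cells. So are CtbpDKO libraries of a time course labelled with Dox at days 0 and 3. All 12 genotype libraries, among them 2 each labelled Dppa2KO and Dppa2_DuxTKO, share the fit and estimate of spread behind the CtbpDKO against WT calls. The labels of Dppa2_DuxTKO conflict, since its description reads DKO_Dppa2_KO. The labels do not say whether a knockout line is 1 clone or whether the libraries of a group came from separate cultures, so p-values measure only the spread between these libraries.

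CtBP1 and CtBP2 are corepressors. DNA-binding factors such as the ZEB, SNAI and KLF proteins carry a short peptide motif that docks them, and the CtBP dimer brings histone deacetylases, the demethylase LSD1 and histone methyltransferases to the bound gene. The dimer binds NAD(H), and it is best known for holding E-cadherin and other epithelial genes down. In embryonic stem cell cultures a small, changing share of cells enters the 2-cell-like state, in which the transcription factor DUX switches on genes of the 2-cell embryo such as Zscan4.

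Ctbp1 (chr5:33247723-33275004, GRCm38.p6) stood at 64.1 and 68.8 CPM (counts per 1000000 of the scaled library size) in WT and at 0.0305 and 0.0559 CPM in CtbpDKO. The 3 counts left in CtbpDKO against 4020 in WT give a ratio of 1520-fold lower, with an exact 95% interval from 520 to 7370 for counting error only. Ctbp2 (chr7:132986998-133124009) stood at 211 and 215 CPM in WT and at 43.6 and 43.8 CPM in CtbpDKO. It fell by 2.29 on the log2 scale (SE 0.08, edgeR adjusted p 7.65e-10), and 20.5% of the WT level was still counted. Both genes therefore followed the labels, Ctbp1 at nearly no reads and Ctbp2 at a reduced level.

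The 4 libraries held 29196060 to 33345147 counts, and 25627 and 25732 genes had at least 1 count in WT against 27007 and 27376 in CtbpDKO. Structural RNAs took 6.43% to 9.11% of counts in WT and 4.81% to 7.31% in CtbpDKO. Genes that mark embryonic stem cells (Pou5f1, Sox2, Nanog, Zfp42, Esrrb, Dppa5a, Utf1 and Tdgf1) summed to 2890 and 2900 CPM in WT and to 2570 and 2450 CPM in CtbpDKO. Fibroblast markers summed to 3.02 and 3.03 CPM in WT and to 14.9 and 15 CPM in CtbpDKO. Of the 8 markers, Dcn, Lum and Postn had 0 counts in all 4 libraries, and Thy1 and Pdgfrb carried the sum. Mesoderm markers summed to 3.38 to 5.7 CPM in all 4 libraries. In bulk RNA, a change in the number of expressing cells and a change in RNA per cell cannot be told apart.

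Chromosome 8 stood apart from the rest of the genome. The median over its 611 well-counted genes was 0.35 on the log2 scale in CtbpDKO against WT, and 50.6% of them were called higher. The median of every other autosome and of X lay between -0.078 and 0.043. Relative to the mean of WT, chromosome 8 was at 0.36 and 0.34 in the CtbpDKO libraries, at 0.37 and 0.35 in DuxKO, and at 0.23 and 0.25 in Ctbp_DuxTKO. The shift ran along the whole chromosome, with medians from 0.25 to 0.51 in 10 equal groups of genes ordered by position. Its part in the change of any single gene on chromosome 8 was not tested, so such genes are marked as lying there. Zfp42, among the stem cell markers above, lies there too.

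**Figure D1:**
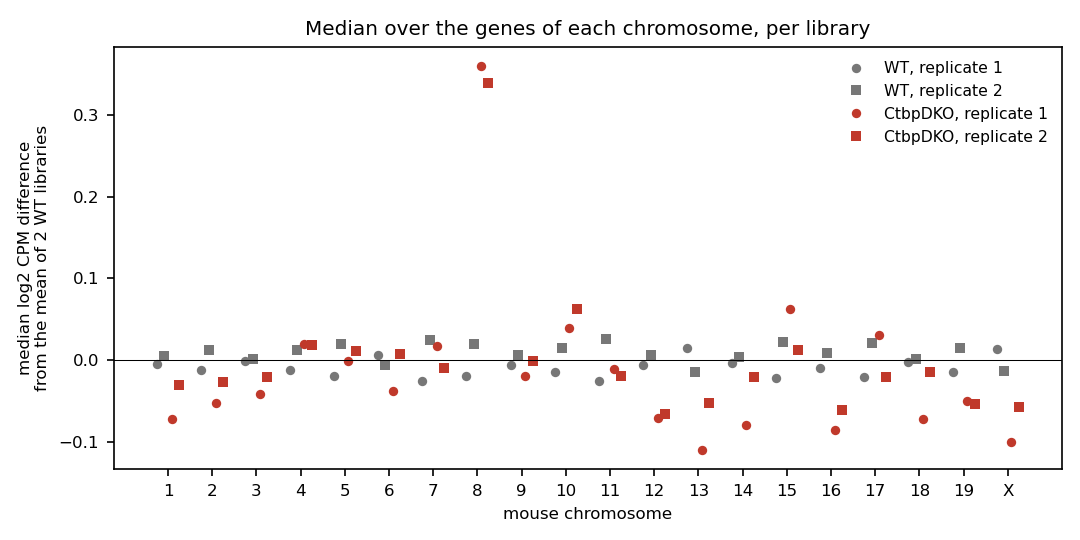
Median log2 CPM difference from the mean of the 2 WT libraries over the genes of each chromosome (x axis), 1 point per library, WT in grey and CtbpDKO in red. Both CtbpDKO libraries sit at 0.36 and 0.34 on chromosome 8 and between -0.11 and 0.063 on all others.

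Of 21193 genes tested, 5522 (26.1%) were called, that is, had a Benjamini-Hochberg adjusted p under 0.05 in the edgeR quasi-likelihood test, 3115 of them higher (14.7%) and 2407 lower (11.4%) in CtbpDKO. The changes that rose reached further. Among the genes called higher, 440 (14.1%) rose at least 8-fold, against 72 (2.99%) of those called lower. At least a 2-fold change was reached by 1439 genes called higher (6.79% of genes tested) and by 782 called lower (3.69%). Genes called higher had a median WT level of 7.98 CPM and genes called lower one of 15.5 CPM, against 5.23 CPM over all genes tested. No more than 3 counts were found in WT for 263 of the genes called higher, of which 158 had none. The converse, at most 3 counts in CtbpDKO, held for 34 genes called lower. Without WT replicate 1 the counts fell to 1992 higher and 1551 lower, and without CtbpDKO replicate 1 to 1994 higher. The libraries of the groups did not overlap for 7007 genes with the higher level in CtbpDKO (33.1%) and for 6416 with the lower (30.3%). Without the genes of chromosome 8 the calls were 2751 higher and 2363 lower.

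**Figure D2:**
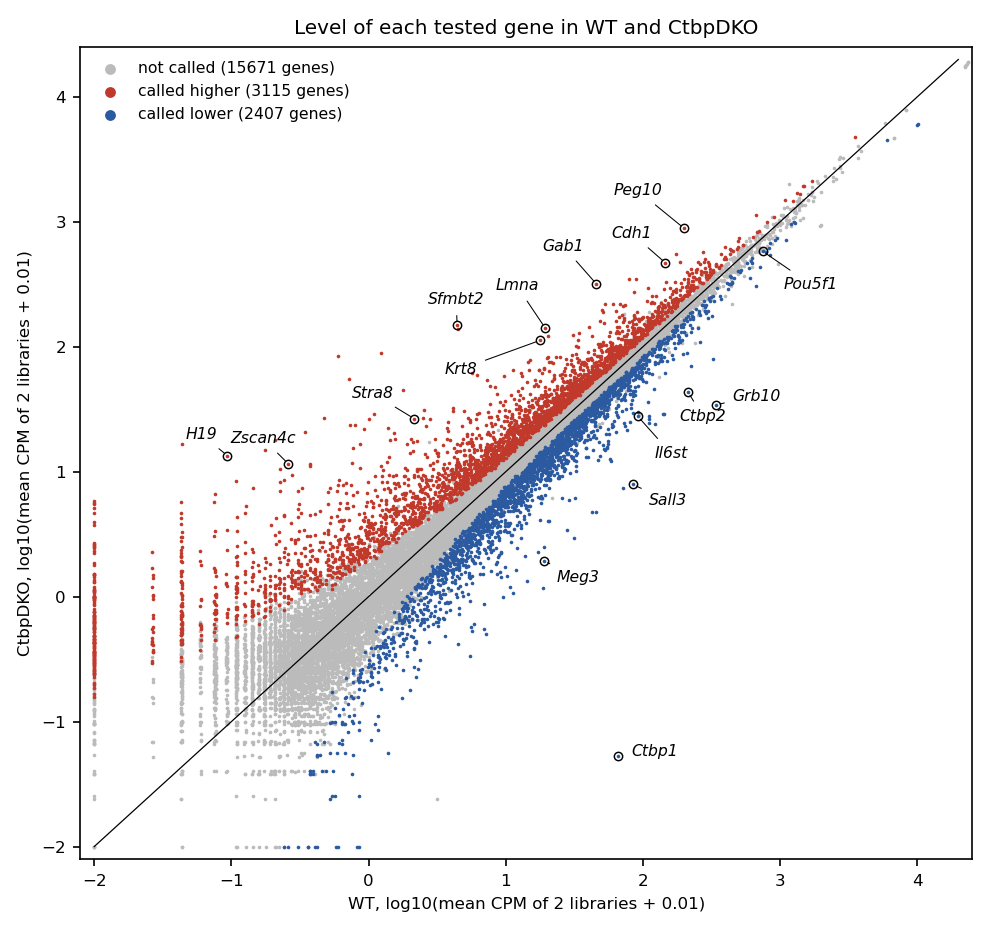
Mean level of each of the 21193 tested genes in WT (x axis) and CtbpDKO (y axis), as log10 of CPM plus 0.01, red where called higher (3115 genes) and blue where called lower (2407 genes). Ctbp1 lies far below the diagonal, and the red points spread further from it than the blue ones.

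Genes of 29 lists were read against these shares. Of lists with at least 10 tested members, the largest shares called higher were found for 2-cell state genes (28 of 32), trophoblast genes (22 of 31), keratins and cornified envelope genes (12 of 19) and epithelial adhesion genes (28 of 54). The background share called higher was 14.7%. Several lists lay near it: glycolysis (14.7%), naive pluripotency (16%), Wnt (16.3%) and mesoderm genes (16.7%). Nodal and Bmp genes (17.1%), neuroectoderm genes (18.2%) and Srf targets (18.5%) did so too. Lower calls were most frequent in 3 lists: 4 of 7 genes of the imprinted Dlk1-Dio3 region, 13 of 27 core and formative pluripotency genes and 11 of 25 naive pluripotency genes, against 11.4% of all genes tested.

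**Figure D3:**
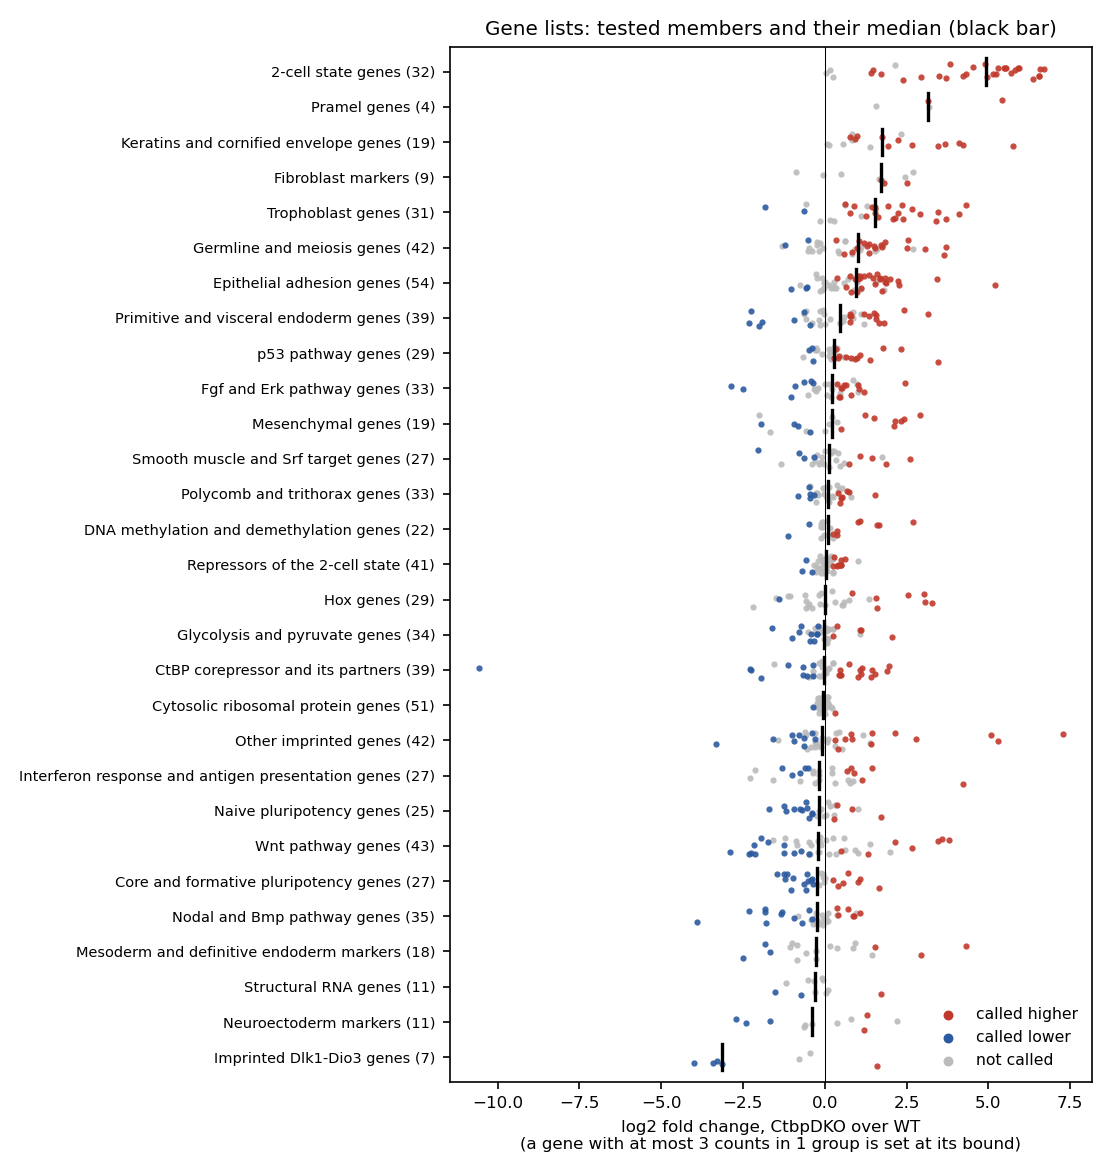
Log2 fold change of CtbpDKO over WT for the tested members of 29 gene lists, 1 point per gene, with the list median as a black bar and the number tested in brackets. A gene with at most 3 counts in 1 group is set at the bound that 3 counts give. The 2-cell state genes have the highest median at 4.93 and the Dlk1-Dio3 genes the lowest at -3.16.

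The 2-cell state genes rose from almost nothing. Dux itself, listed as Duxf3, had 1 count in WT and 64 in CtbpDKO, a ratio of 56.4 (exact 95% interval 9.77 to 2260, edgeR adjusted p 0.00911). That call was lost without WT replicate 1 (edgeR adjusted p 0.053), without WT replicate 2 (0.0985) or without CtbpDKO replicate 1 (0.0993). Zscan4c, a member of the zinc finger family that protects telomeres in these cells, stood at 0.403 and 0.0978 CPM in WT and at 9.85 and 13.3 CPM in CtbpDKO. It rose by 5.52 (SE 0.54, edgeR adjusted p 3.40e-05). Zscan4e had no count in WT and 351 counts in CtbpDKO, which makes it at least 103-fold higher, and Zscan4b was at least 95.3-fold higher. Usp17le, one of a family of deubiquitinase genes of the 2-cell embryo, stood at 0.0671 and 0.0652 CPM in WT and at 6.68 and 6.57 CPM in CtbpDKO. Every 2-cell gene called stayed at or below 13.6 CPM in CtbpDKO except Pramef12, which reached 23.6 and 27.8 CPM from 9.60 and 9.88 CPM in WT. Of 43 listed genes 32 passed the low-count filter, 28 were called higher and none lower. The median change was 6.33, or 4.93 with genes of at most 3 counts set at their bound. Nelfa, Ddit4l, Trim43a and Trim43b were tested and not called. DESeq2 called 17 of the list, since its adjusted p was above the threshold for Zscan4a (0.401), Zscan4b (0.182) and Zscan4c (0.215) among others. Copies of these families are nearly identical, and the handling of reads that match several copies is not given in the sources used here.

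The promoters of Zscan4b, Zscan4c, Zscan4d and Zscan4f held a match to the DUX motif, searched on both strands. In the RefSeq table (GRCm38.p6) 4 of 18 promoters of tested 2-cell genes held it (22.2%), against 18 of 15867 promoters of all genes tested (0.113%). These 4 are all of the Zscan4 family, whose copies are nearly identical, so they are not independent observations. No promoter of another tested 2-cell gene held the motif, and the 4 are also counted among all genes tested. Zscan4c is shown because its levels are given above, and Zscan4d because its promoter is a close copy. Zscan4d had 2 counts in WT and 192 in CtbpDKO, a ratio of 84.7 (exact 95% interval 23.1 to 704). The 250 bases before the start are written 5′ to 3′, with the match in capitals. In the search, the AG after TGAT could be any 2 bases. They lie at chr7:11005495-11005744 (plus strand) and chr7:11166149-11166398 (minus strand).
Zscan4c: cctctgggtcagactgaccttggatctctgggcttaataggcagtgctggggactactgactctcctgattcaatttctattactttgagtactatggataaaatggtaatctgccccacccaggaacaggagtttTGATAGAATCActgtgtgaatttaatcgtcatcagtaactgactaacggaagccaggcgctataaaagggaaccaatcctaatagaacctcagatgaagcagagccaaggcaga
Zscan4d: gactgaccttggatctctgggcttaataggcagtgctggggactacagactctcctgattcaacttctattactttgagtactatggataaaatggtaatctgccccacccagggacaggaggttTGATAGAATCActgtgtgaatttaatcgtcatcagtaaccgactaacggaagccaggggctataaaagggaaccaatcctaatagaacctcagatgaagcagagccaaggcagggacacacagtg

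Pramel genes, relatives of a family of germline leucine-rich repeat proteins, were near 0 in WT. Pramel7, which lowers DNA methylation in the early embryo by marking UHRF1 for breakdown, had 2 counts in WT and 146 in CtbpDKO, a ratio of 64.4 (interval 17.5 to 537). Pramel6 had 2 and 30 counts, a ratio of 13.2 (3.36 to 114). Both were called higher, Pramel6 not without WT replicate 1 (edgeR adjusted p 0.133) or CtbpDKO replicate 2 (0.104), and Pramel1 and Pramel3, the other 2 tested of 11 listed, were not.

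Among genes with a mean of at least 100 CPM in the higher group, the largest change was in an imprinted gene, one expressed mainly from the maternal or the paternal copy. Sfmbt2 (chr2:10370440-10595253), a Polycomb-like gene expressed from the paternal copy and needed in the placenta, stood at 4.36 and 4.47 CPM in WT and at 141 and 158 CPM in CtbpDKO. It rose by 5.08 on the log2 scale (SE 0.14, edgeR adjusted p 8.14e-11). H19 (chr7:142575530-142578146), a maternally expressed long non-coding RNA, stood at 0.134 and 0.0326 CPM in WT and at 16.5 and 10.5 CPM in CtbpDKO, a rise of 7.28 (SE 0.37). Its neighbour Igf2, expressed from the paternal copy, went from 4.80 and 4.24 to 7.75 and 8.13 CPM and rose by 0.81 (SE 0.15). Gab1, a docking protein of receptor signalling, stood at 47.3 and 44.5 CPM in WT and at 310.1 and 326 CPM in CtbpDKO and rose by 2.79 (SE 0.10). Gab1 lies on chromosome 8, whose median is 0.35. Peg10, a retrotransposon-derived placental gene, went from 197 and 204 to 859 and 914 CPM. Sfmbt2, Gab1 and Peg10 are all known for imprinted expression in the placenta.

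Other imprinted genes fell. Grb10 (chr11:11930499-12037428), an adaptor that restrains insulin and growth factor signalling, stood at 345 and 337 CPM in WT and at 34.3 and 34.4 CPM in CtbpDKO. It fell by 3.31 (SE 0.09, edgeR adjusted p 8.14e-11). Cdkn1c, a cell cycle inhibitor, went from 29.02 and 29.4 to 10.8 and 8.86 CPM, and Gnas, which encodes a G protein subunit, from 106 and 104 to 53.6 and 50.4 CPM. Of 45 listed imprinted genes outside the Dlk1-Dio3 region 42 were tested, 12 were called higher and 9 lower, with a median of -0.0742. The list therefore moved in both directions. Higher calls numbered 7 without WT replicate 1, without WT replicate 2 or without CtbpDKO replicate 2, and lower calls numbered 5 without WT replicate 1.

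In the Dlk1-Dio3 region of chromosome 12 the maternally expressed non-coding RNAs fell together. Meg3 (chr12:109540996-109571729) stood at 17.9 and 20.02 CPM in WT and at 1.95 and 1.90 CPM in CtbpDKO and fell by 3.30 (SE 0.18, edgeR adjusted p 6.05e-08). Rian went from 41.1 and 43.6 to 4.64 and 4.86 CPM, and Mirg from 18.4 and 18.97 to 1.40 and 0.922 CPM. Rtl1, a retrotransposon-derived gene with a maternally expressed antisense RNA, went from 11.1 and 11.6 to 1.13 and 0.978 CPM. Dlk1 and Begain were not called. Dio3, a thyroid hormone deiodinase expressed from the paternal copy, stood at 0.470 and 0.978 CPM in WT and at 2.65 and 1.73 CPM in CtbpDKO. It rose by 1.59 (SE 0.44), and this call was lost without WT replicate 1 or without CtbpDKO replicate 1. The setting used to count strand is not given in the sources used here, so sense and antisense reads of Rtl1 cannot be told apart.

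Of 22 genes of DNA methylation and demethylation 8 were called higher and 2 lower, and the higher calls numbered 4 without WT replicate 1. Dnmt3b, a methyltransferase that acts on unmethylated DNA, stood at 81.6 and 90.2 CPM in WT and at 272 and 275 CPM in CtbpDKO and rose by 1.67 (SE 0.09, edgeR adjusted p 2.89e-08). Dnmt3a went from 87.5 and 92.8 to 196 and 184 CPM, and Dnmt3l, their catalytically inactive partner, from 66.5 and 61.6 to 197 and 190 CPM. Each was 2.11-fold to 3.18-fold the WT level. Dnmt1, which copies methylation after replication, stood at 393 and 421 CPM in WT and at 378 and 373 CPM in CtbpDKO and was not called (edgeR adjusted p 0.408). Uhrf1, which recruits DNMT1, rose by 0.37 (SE 0.08), a call lost without WT replicate 1 (edgeR adjusted p 0.0588). Apobec2, a member of the cytidine deaminase family, went from 0.805 and 1.40 to 7.62 and 6.73 CPM. Tet1, Tet2 and Tet3, which oxidise methylcytosine, were not called. Zfp445 and Zfp57, zinc finger proteins that keep imprints, were lower: Zfp445 went from 41.8 and 36.5 to 15.5 and 20.3 CPM and Zfp57 from 105 and 118 to 79.1 and 79.1 CPM.

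Epithelial genes were higher as a group. Cdh1 (chr8:106603350-106670247), which encodes E-cadherin, stood at 145 and 148 CPM in WT and at 468 and 472 CPM in CtbpDKO. It rose by 1.69 (SE 0.09, edgeR adjusted p 2.93e-08), on a chromosome with a median of 0.35. The desmosome genes Dsp, Pkp2, Pkp3, Dsc2 and Dsg2 rose by 1.19 to 2.24, and the laminin chains Lama3 and Lamb3 by 1.02 and 3.42. The call of Dsc2 was lost without WT replicate 2, and that of Lama3 without any 1 of the 4 libraries. Misp, an actin-bundling protein, stood at 0.268 and 0.196 CPM in WT and at 8.51 and 8.72 CPM in CtbpDKO. Not all epithelial genes moved this way. Grhl2, a transcription factor of epithelia, went from 27.1 and 29.7 to 12.1 and 15.6 CPM (log2 change -1.04, SE 0.14), and Epcam from 51.4 and 45.1 to 36.4 and 30.4 CPM (-0.53, SE 0.11). The tight junction genes Ocln, Cldn3, Cldn6, Cldn7 and Tjp1 were not called. Of 60 listed genes 54 were tested, 28 were called higher and 3 lower (median 0.944). Without the 5 members on chromosome 8 the counts were 25 and 3 of 49 (median 0.788).

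Keratins, the intermediate filaments of epithelia, were higher too. Krt8 (chr15:101996711-102004342) stood at 19.8 and 15.97 CPM in WT and at 117 and 109 CPM in CtbpDKO and rose by 2.66 (SE 0.14, edgeR adjusted p 1.87e-08). Krt18 (chr15:102028216-102032026), its partner in simple epithelia, went from 6.07 and 6.36 to 31.2 and 26.99 CPM and rose by 2.23 (SE 0.12). Sfn, the 14-3-3 sigma protein of stratified epithelia, stood at 5.33 and 5.93 CPM in WT and at 63.4 and 60.1 CPM in CtbpDKO and rose by 3.45 (SE 0.12). These 3 genes had clear levels in WT already. Trim29, a gene of basal epithelia, had no count in WT and 184 in CtbpDKO and was at least 54.1-fold higher. Of 43 listed genes 19 were tested, and 12 were called higher and none lower. The median was 2.23, or 1.74 with low-count genes at their bound. The 24 untested members include Krt5, Ivl, Lor and Flg, all genes of the skin.

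CtBP is known to be carried to such genes by ZEB and SNAI proteins, which bind the E-box letters CACCTG. The letters were searched on both strands in the window from 250 bases before to 50 after each RefSeq start. They occurred in 19.5% of the 15867 promoters of genes tested, in 23.4% of promoters of genes called higher and in 17.9% of those called lower. They occurred in 23 of 35 promoters of tested epithelial genes (65.7%), in 7 of 15 of keratin list genes (46.7%) and in 10 of 24 of trophoblast genes (41.7%). By gene, 583 of 2808 tested genes with the letters were called higher (20.8%), and 1510 of 9715 without (15.5%). Among epithelial genes, 9 of 19 with the letters were called higher and 1 lower, and 2 of 7 without were called higher. Among trophoblast genes, all 10 with the letters were called higher, and 4 of 11 without. Of the 10, Cldn4, Elf3, Krt7, Krt8 and Krt18 are also in the epithelial or keratin lists. Ascl2 and Gcm1 were called at edgeR adjusted p-values of 0.0395 and 0.0275, near the threshold. Both calls were lost without any 1 of the 4 libraries, and that of Cyp11a1 without WT replicate 2 or CtbpDKO replicate 2. Among trophoblast genes without the letters, the call of Phlda2 was lost without any 1 of the 4 libraries. The promoters below were chosen as those of the 3 keratin list genes with the largest rise among those at 5 CPM or more in WT, with that of Epcam beside them as an epithelial gene that holds the letters and fell. Each is 250 bases before the start from RefSeq GRCm38.p6, 5′ to 3′, with the E-box, on either strand, in capitals. They lie at chr15:102004343-102004592 (minus strand), chr15:102027966-102028215 (plus), chr4:133602169-133602418 (minus) and chr17:87635729-87635978 (plus).
Krt8: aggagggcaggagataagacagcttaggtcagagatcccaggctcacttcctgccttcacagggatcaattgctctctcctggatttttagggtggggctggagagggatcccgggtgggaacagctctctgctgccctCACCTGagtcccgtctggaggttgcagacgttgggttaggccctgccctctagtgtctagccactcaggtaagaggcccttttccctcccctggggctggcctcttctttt
Krt18: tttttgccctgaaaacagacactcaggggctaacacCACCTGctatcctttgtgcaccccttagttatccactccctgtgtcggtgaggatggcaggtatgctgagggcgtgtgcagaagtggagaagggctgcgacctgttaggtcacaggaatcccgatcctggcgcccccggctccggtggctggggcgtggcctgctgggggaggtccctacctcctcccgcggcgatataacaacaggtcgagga
Sfn: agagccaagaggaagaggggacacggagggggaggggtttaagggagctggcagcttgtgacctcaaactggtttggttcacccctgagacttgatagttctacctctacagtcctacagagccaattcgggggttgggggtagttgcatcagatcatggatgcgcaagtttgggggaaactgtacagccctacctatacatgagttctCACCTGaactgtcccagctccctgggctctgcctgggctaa
Epcam: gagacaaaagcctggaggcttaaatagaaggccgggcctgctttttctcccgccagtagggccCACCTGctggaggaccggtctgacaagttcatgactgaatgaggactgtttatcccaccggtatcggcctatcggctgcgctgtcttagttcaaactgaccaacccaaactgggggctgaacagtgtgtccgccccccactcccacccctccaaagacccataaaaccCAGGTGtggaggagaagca
The E-box began 111 bases before the start in Krt8, 214 in Krt18 and 41 in Sfn, and Epcam had 2 of them, at 187 and 19 bases. The letters were thus present in promoters of genes that rose and of a gene that fell.

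**Figure D4:**
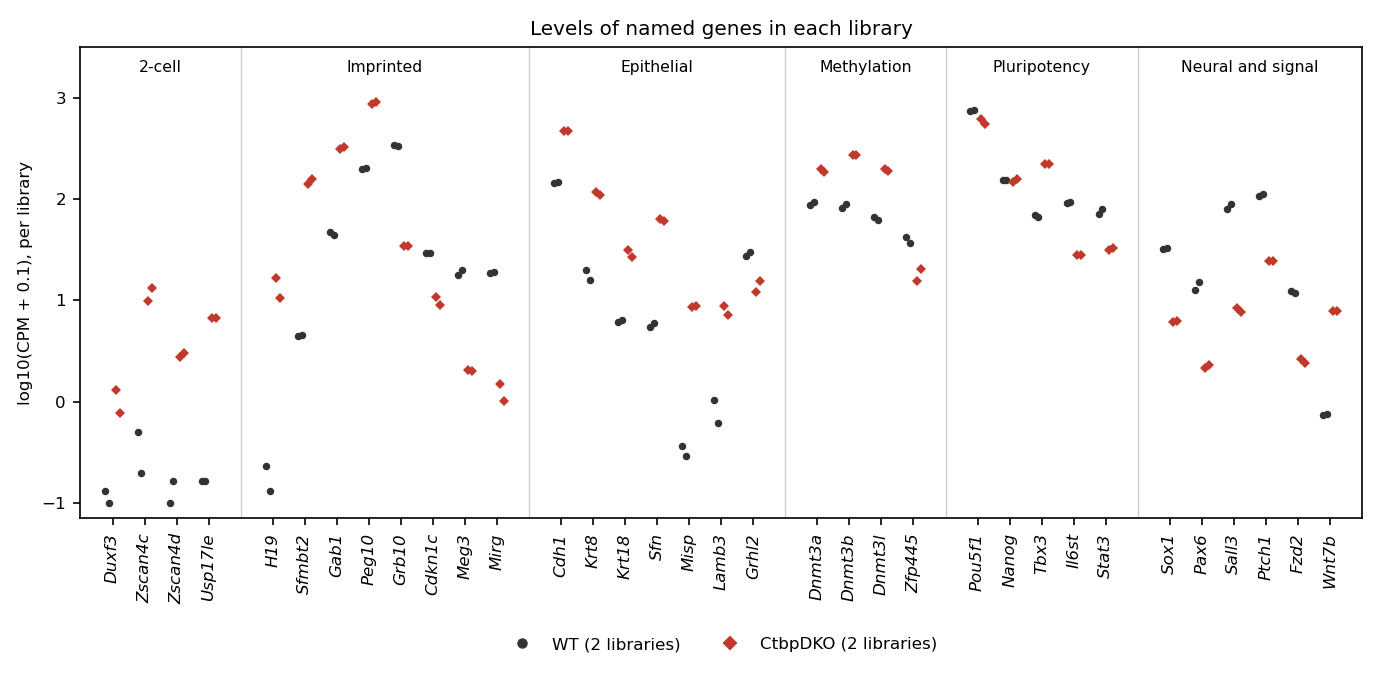
Level of named genes in each library, as log10 of CPM plus 0.1, with WT as black circles and CtbpDKO as red diamonds, 2 libraries each. Except for Nanog, the 2 groups are separated for each gene drawn, with Sfmbt2, H19 and Misp far above WT and Grb10, Sall3 and Mirg far below.

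Mesenchymal genes were called in both directions. Vim, the intermediate filament of mesenchyme, stood at 75.1 and 84.2 CPM in WT and at 336 and 363 CPM in CtbpDKO and rose by 2.13 (SE 0.13, edgeR adjusted p 9.88e-08). Snai1, a repressor of Cdh1, went from 0.336 and 0.782 to 2.99 and 3.07 CPM. Zeb1 stood at 15.3 and 13.2 CPM in WT and at 15.1 and 15.7 CPM in CtbpDKO and was not called (edgeR adjusted p 0.582). Zeb2 fell by 1.95 (SE 0.37), from 5.03 and 5.87 to 1.10 and 1.70 CPM, and Cdh2, which encodes N-cadherin, by 0.94 (SE 0.14). In the mesenchymal list 8 of 19 tested genes rose and 4 fell. The fibroblast list, with 3 of 9 tested genes called higher and none lower, rose in Thy1, Fbn1 and Pdgfrb.

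Trophoblast genes, those of the outer lineage of the placenta, were called higher in 22 of 31 and lower in 2, with a median of 1.53. Of these 22, 6 (Cldn4, Elf3, Krt7, Krt8, Krt18 and Krt19) are also in the epithelial or keratin lists. Hand1, needed for giant cells, stood at 0.369 and 0 CPM in WT and at 3.84 and 3.604 CPM in CtbpDKO. Esx1, a placental homeobox gene, went from 0.503 and 0.685 to 7.17 and 8.61 CPM, and Eomes from 4.76 and 4.08 to 12.4 and 13.1 CPM. None of these 3 exceeded 13.1 CPM. Cdx2 (0.201 and 0.554 to 1.04 and 0.838 CPM) and Gata3 were not called, and Elf5, a gatekeeper of the lineage, had 0 and 0 counts in WT against 4 and 2 in CtbpDKO. The 8 trophoblast markers summed to 7.65 and 7.34 CPM in WT and to 29 and 29.7 CPM in CtbpDKO. Id2 and Fgfr2, both expressed in trophoblast stem cells, fell.

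Germline genes were called higher in 19 of 42 tested and lower in 2, Kit and Sycp3, with a median of 1.01. Without the 4 members on chromosome 8 the counts were 16 and 2 of 38 (median 1.03). Stra8, which starts meiosis in response to retinoic acid, stood at 2.52 and 1.76 CPM in WT and at 30.5 and 22.7 CPM in CtbpDKO and rose by 3.64 (SE 0.20, edgeR adjusted p 2.42e-08). Fkbp6, of the piRNA pathway, went from 0.738 and 0.456 to 4.94 and 5.11 CPM. Smc1b, a cohesin subunit of meiosis, went from 2.65 and 2.48 to 7.198 and 11.2 CPM, and Dazl, an RNA-binding protein of germ cells, from 0.939 and 0.717 to 2.07 and 3.33 CPM. Dazl was no longer called without WT replicate 2 (edgeR adjusted p 0.0868) or CtbpDKO replicate 2 (0.116). All of these genes had low but counted RNA in WT. Sycp3, a core protein of the paired chromosomes in meiosis, went the other way, from 3.86 and 3.72 to 1.28 and 1.96 CPM. Without CtbpDKO replicate 1 it was not called (edgeR adjusted p 0.0552), and the list had 1 lower call. Spo11, Meiob and Asz1 were among the 6 members too low to test.

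Pluripotency genes were called lower more often than higher. Nanog stood at 154 and 153 CPM in WT and at 148 and 157 CPM in CtbpDKO, and Klf4 and Dppa4 were not called either. Pou5f1, the gene of OCT4, stood at 735 and 757 CPM in WT and at 615 and 551 CPM in CtbpDKO. It fell by 0.36 (SE 0.10, edgeR adjusted p 0.0223), a call lost without WT replicate 1, without WT replicate 2 or without CtbpDKO replicate 2. The genes that receive and pass on the LIF signal fell further. Il6st, the gp130 receptor chain, went from 90.4 and 92.5 to 28.1 and 27.7 CPM (log2 change -1.71, SE 0.09), Lifr from 185 and 178 to 119 and 126 CPM (-0.57, SE 0.10), and Stat3, the transcription factor downstream, from 71.2 and 79.9 to 31.3 and 32.8 CPM (-1.24, SE 0.12). Their target Socs3 was not called. Tbx3, a naive factor, rose from 69.0 and 66.4 to 219.7 and 223 CPM. In the naive list 4 of 25 genes were called higher and 11 lower, and in the core and formative list 7 of 27 and 13. The naive list had 2 higher calls without WT replicate 2 or without CtbpDKO replicate 1, and the core and formative list had 8 lower calls without WT replicate 1.

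Several genes of the primed and early neural states were lower. Sox1, the earliest neural marker, stood at 31.8 and 32.5 CPM in WT and at 6.04 and 6.17 CPM in CtbpDKO and fell by 2.40 (SE 0.12, edgeR adjusted p 1.54e-08), although it lies on chromosome 8. Pax6 went from 12.65 and 15.03 to 2.04 and 2.21 CPM, and Sox11 from 24.4 and 24.1 to 9.15 and 8.58 CPM. Otx2, Pou3f1, Fgf5, Zic2 and Zic5, expressed as cells leave the naive state, fell by 0.51 to 1.23. The calls of Fgf5 and Pou3f1 were lost without any 1 of the 4 libraries, and that of Otx2 was kept without CtbpDKO replicate 2 only. The core and formative list went both ways, with 7 of 27 genes called higher and 13 lower. Its members Dnmt3a and Dnmt3b rose by 1.075 and 1.67. Neural genes did not all fall. Nes and Tubb3 rose by 1.30 and 1.21, Tubb3 on chromosome 8, so that 2 of 11 tested neuroectoderm genes were called higher and 3 lower. The 7 neuroectoderm markers summed to 44.6 and 47.7 CPM in WT and to 8.72 and 8.89 CPM in CtbpDKO, and Sox1 and Pax6 made up nearly all of it.

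Primitive endoderm genes were called higher in 13 of 39 and lower in 7. Without the 3 members on chromosome 8 the counts were 11 and 7 of 36. Gata6, which sets up this lineage, stood at 2.18 and 2.05 CPM in WT and at 4.36 and 6.37 CPM in CtbpDKO and rose by 1.34 (SE 0.30, edgeR adjusted p 0.00491), a call lost without CtbpDKO replicate 2 (0.0579). Rhox5 went from 2.62 and 1.17 to 17.3 and 16.2 CPM, and the basement membrane gene Sparc from 45.5 and 40.0 to 120.3 and 122 CPM. Col4a1 and Col4a2, which make type IV collagen, rose by 1.58 and 1.19 and lie on chromosome 8. Sox17, Dab2, Cubn and Foxa2 were not called. Apoe fell from 306 and 341 to 84.9 and 74.7 CPM. The 8 endoderm markers summed to 53.2 and 41.5 CPM in WT and to 52.5 and 56.4 CPM in CtbpDKO, so the ranges overlap. Of these 8 markers 4 were called higher and none lower, Gata4 (3.62 and 4.24 to 6.74 and 6.73 CPM), Pdgfra (3.15 and 3.19 to 5.76 and 5.06 CPM), Sox7 and Gata6, while Cubn and Dab2 made up most of the sum. The calls of Sox7 and Pdgfra were lost without WT replicate 2 or CtbpDKO replicate 1, that of Sox7 also without CtbpDKO replicate 2 and that of Pdgfra also without WT replicate 1. Mesoderm genes were called higher in 3 of 18 (Hand1, Gata1 and Eomes) and lower in 3 (Meox1, Tal1 and Fgf8). Each share was 16.7%, against 14.7% and 11.4% of all genes tested. T, the Brachyury gene, stayed at or below 0.456 CPM. Without WT replicate 2 or without either CtbpDKO replicate none of the 3 lower calls was left. Tal1 then had edgeR adjusted p-values of 0.0667, 0.0573 (CtbpDKO replicate 1) and 0.0522 (CtbpDKO replicate 2).

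Wnt ligands that were called rose and Frizzled receptors that were called fell. Of the ligands, Wnt7b rose from 0.637 and 0.652 to 7.84 and 7.74 CPM (log2 change 3.59, SE 0.22, edgeR adjusted p 6.93e-08), and Wnt6, Wnt8a and Wnt3a were called higher too. Wnt3a had 2 counts in WT and 47 in CtbpDKO, a ratio of 20.7 (5.43 to 176). Its call was lost without WT replicate 2 (edgeR adjusted p 0.0765), and that of Wnt8a without any 1 of the 4 libraries. Of the receptors, Fzd2 fell from 12.4 and 11.8 to 2.56 and 2.32 CPM and Fzd7 from 163 and 162 to 94.7 and 75.8 CPM. The secreted antagonists Sfrp1 (on chromosome 8), Sfrp2, Dkk3 and Notum fell, as did the nuclear factors Lef1, Tcf7 and Tcf7l2. Tcf7 was not called without WT replicate 2 or without CtbpDKO replicate 1. Among transcriptional targets, Axin2 rose from 5.67 and 5.38 to 13.7 and 13.7 CPM, Cdx1 from 0.470 and 0.522 to 5.76 and 5.17 CPM, and Ccnd1 fell from 198 and 220.1 to 89.3 and 88.7 CPM. Over the 43 Wnt genes 7 were called higher (16.3%) and 12 lower (27.9%), against 14.7% and 11.4% of all genes tested.

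In the Nodal and Bmp pathways the ligands Nodal, Bmp4 and Bmp7 rose by 0.40 to 1.09. The call of Bmp7 was lost without WT replicate 2 (edgeR adjusted p 0.0724), and that of Nodal without either WT replicate or without CtbpDKO replicate 1. Lefty1, a Nodal antagonist and target, fell from 77.3 and 77.1 to 23.9 and 19.5 CPM (log2 change -1.83, SE 0.16, edgeR adjusted p 1.94e-06), and Lefty2 by 0.47. The extracellular inhibitors Fst, Grem1 and Chrd and the corepressor Skil fell as well. Id1 rose by 0.87 and Id2, Id3 and Id4 fell, which are all targets of Bmp signalling. Lefty2 was not called without WT replicate 1 or CtbpDKO replicate 2, nor Chrd and Id3 without any 1 of the 4 libraries. The counts were 6 higher and 11 lower of 35 tested, with 3 higher without WT replicate 2. In the Fgf pathway the feedback inhibitors Spry1, Spry2, Spry4, Dusp4 and Dusp6 rose by 0.53 to 1.21, while Spred1 fell by 0.91. Fgf4, the ligand made by embryonic stem cells, went from 106 and 105 to 139 and 135 CPM, and Fgf17 from 10.7 and 13.2 to 1.71 and 1.54 CPM. Fgf4 was not called without WT replicate 2 or CtbpDKO replicate 1. There 12 of 33 were called higher and 7 lower, Dusp4 and Fgfr1 among them on chromosome 8, and the lower calls numbered 4 without either WT replicate or without CtbpDKO replicate 1.

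In glycolysis, Hk1 rose from 19.3 and 21.2 to 84.8 and 82.4 CPM (log2 change 2.05, SE 0.12, edgeR adjusted p 6.93e-08), while Hk2, the other main hexokinase of these cells, fell from 268 and 295 to 212 and 203 CPM. Ldhb, a lactate dehydrogenase subunit, fell from 93.3 and 90.3 to 33.2 and 27.3 CPM. Of 34 genes 5 were called higher and 10 lower, and the lower calls numbered 5 to 7 without 1 library (6 without WT replicate 1 or CtbpDKO replicate 1, 5 without CtbpDKO replicate 2). The share of glycolysis genes called higher, 14.7%, equalled that of all genes tested. Targets of p53 were called higher in 13 of 29 and lower in 3. Led by Sfn, those called higher included Gdf15 (on chromosome 8), Ddit4 and Sesn2, while Mdm2 rose by 0.28 and Bax fell by 0.49. The call of Mdm2 was lost without any 1 of the 4 libraries. Interferon and antigen presentation genes split into 6 higher and 5 lower of 27, and the higher calls numbered 2 without WT replicate 1 or CtbpDKO replicate 1 and 3 without WT replicate 2. Ifi35 went from 0.134 and 0.326 to 5.37 and 3.41 CPM, and Ifitm1, Ifitm2 and Ifitm3 fell by 0.51 to 1.29.

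Of 33 Polycomb and trithorax genes 7 were called higher and 5 lower, among them Jarid2, a PRC2 cofactor, which rose by 0.51, and Phf19, which fell by 0.81. Higher calls there numbered 4 without WT replicate 1 or CtbpDKO replicate 1. Of 29 tested Hox genes 7 were called higher and 1, Hoxc13, lower, and the 7 stayed at or below 5.70 CPM in CtbpDKO. Without WT replicate 2 there were 2 higher Hox calls, and without CtbpDKO replicate 1 there were 3. Of 41 factors that hold back the 2-cell state 9 were called higher (22%) and 3 lower (7.32%). The shares over all genes tested were 14.7% and 11.4%. Without the 2 members on chromosome 8, 7 of 39 were called higher and 3 lower. Myc and Sirt1 rose by 0.50 and 0.61, and Sirt1 by 0.43 without CtbpDKO replicate 2. Zmym2, Zfp281 and Smchd1 fell by 0.70, 0.57 and 0.40, and Kdm1a, Dnmt1, Chaf1a and Rif1 were not called. The call of Zmym2 was lost without WT replicate 1 (edgeR adjusted p 0.105) or CtbpDKO replicate 1 (log2 change -0.44, adjusted p 0.106), and that of Smchd1 was kept without CtbpDKO replicate 2 only. Among CtBP and its partners 14 of 39 were called higher and 10 lower, the latter including both Ctbp genes. Rcor2 and Hdac1, of the LSD1 complex, rose by 0.43 and 0.46, and Cdyl2 (on chromosome 8) went from 30.8 and 34.4 to 93.5 and 80.6 CPM. Of 51 cytosolic ribosomal protein genes 1 was called higher and 1 lower, with a median of -0.0477. Among Srf targets 5 of 27 were called higher, with Des from 3.22 and 2.87 to 20.6 and 16.2 CPM, and 4 lower, with 2 lower calls without WT replicate 2 or without CtbpDKO replicate 2.

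The genes with the largest changes outside these lists were of several kinds. Klf17, a transcription factor of the early embryo, had 2 counts in WT and 292 in CtbpDKO, a ratio of 129 (35.3 to 1070), and Crxos, a homeobox gene, was at least 53.5-fold higher. Among well-counted genes Lmna, which encodes the nuclear A-type lamins, stood at 18.9 and 19.9 CPM in WT and at 147 and 136 CPM in CtbpDKO and rose by 2.87 (SE 0.10, edgeR adjusted p 7.65e-10). The laminin receptor Itga3 rose from 20.7 and 20.2 to 127 and 116 CPM. Sall3, a zinc finger gene of the spalt family, fell from 79.4 and 88.9 to 8.23 and 7.60 CPM (log2 change -3.41, SE 0.12, edgeR adjusted p 7.65e-10). Ptch1, the Hedgehog receptor, fell from 107 and 113 to 24.5 and 24.4 CPM, and the guidance cue Ntn1 from 108 and 116 to 25.6 and 26.96 CPM. Eya1, Mok, Ttc23 and H2bu2 fell by 3.42 to 3.64. H2aw (chr11:58954685-58955192) and Trim17 (chr11:58954671-58973075) fell by 2.29 and 2.28, from 135 and 147 CPM and from 135 and 148 CPM in WT. H2aw lies inside Trim17, so their reads may not be separate.

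Several changes lay side by side. Along chromosomes, runs of at least 5 neighbouring tested genes called in the same direction were listed. The longest, at chr12:87479986-88019007, held 13 genes called higher, BB287469 and predicted genes of its family. The run at chr10:104142987-104196522 held 7 predicted genes called higher. Gm21304 among them, singled out after its values were seen, stood at 1.48 and 0.978 CPM in WT and at 88.5 and 89.4 CPM in CtbpDKO. The run at chr7:10794241-11614112 held the 9 Zscan4 genes and pseudogenes, with a median of 6.23. The run at chr12:109540996-109734797 held 9 genes called lower, among them Meg3, Rtl1, Rian and miRNA genes, with a median of -3.43. At chr11:58932288-58991462, 7 genes called lower comprised Rnf187, Trim11, Trim17 and the histone genes H2aw, H2bu2, H3f4 and H2bu1-ps. On chromosome 8 the metallothionein genes Mt1, Mt2, Mt3 and Mt4 lay in a run of 8 genes called higher, with a median of 1.52 against 0.35 for the chromosome. Many members of such runs are near-identical copies or overlap, and they are not independent observations.

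Loss of Ctbp was then read in cells without Dux, by comparing Ctbp_DuxTKO with DuxKO, 2 libraries each. This comparison shares no libraries with CtbpDKO against WT but shares its estimate of spread. Ctbp1 stood at 82.5 and 79.3 CPM in DuxKO and at 0.0867 and 0.136 CPM in Ctbp_DuxTKO, and Ctbp2 at 203 and 187 against 40.0 and 40.3 CPM. Of the 3115 genes called higher in CtbpDKO, 1793 (57.6%, and 39.6% of the 4533 called there) were called higher on Ctbp loss without Dux, against a background of 21.4%. Of the 2407 called lower, 1234 (51.3%, and 29.7% of 4152) were called lower, against 19.6%. The 2-cell list had 3 genes called higher and 1 lower with a median of 0.157. Of its 32 tested members 11, among them Duxf3, Zscan4a, Zscan4b and Zscan4e, had no count in those 4 libraries and enter that median at 0, and the median of the other 21 was 1.35. The keratin list had 16 of 19 called higher (median 2.47), the epithelial list 40 higher and 2 lower of 54 (median 1.69), and the trophoblast list 20 and 3 of 31 (median 1.74). The endoderm list had 30 and 5 of 39 (median 3.04). Sfmbt2, Gab1 (on chromosome 8), H19 and Grb10 changed by 4.89, 4.25, 7.21 and -3.63. Other genes did not repeat their change. Cdkn1c and Grhl2, lower in CtbpDKO against WT, rose without Dux by 2.97 (SE 0.14) and 1.13 (SE 0.14). Meg3 and Rtl1 changed by -0.25 and -0.49 and were not called, while Mirg fell by 1.21. Of the 42 imprinted genes outside the Dlk1-Dio3 region, 19 were called higher there and 8 lower.

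In the time course, CtbpDKO libraries labelled day 3 were compared with those labelled day 0, 2 each. Ctbp2 stood at 58.9 and 59.3 CPM at day 0 and at 544 and 573 CPM at day 3. Of 3045 genes called higher in CtbpDKO against WT and tested there, 343 (11.3%, and 64.8% of the 529 that fell) were lower at day 3, against a background of 2.65% of genes tested in both. Of 2360 called lower, 187 (7.92%, and 37.9% of 493) were higher, against 2.47%. Without any 1 of the 4 time course libraries, these counts fell to between 141 and 225 and between 54 and 122. Over all 20612 genes tested, 2.41% were called higher and 2.59% lower at day 3. Keratins were called lower in 7 of 16 and higher in none (median -0.787), epithelial genes lower in 14 of 52 and higher in 1 (median -0.292), and trophoblast genes lower in 8 and higher in 1 (median -0.436). The 2-cell list had 2 genes called lower of 32. The Dlk1-Dio3 genes had no call in either direction.

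**Figure D5:**
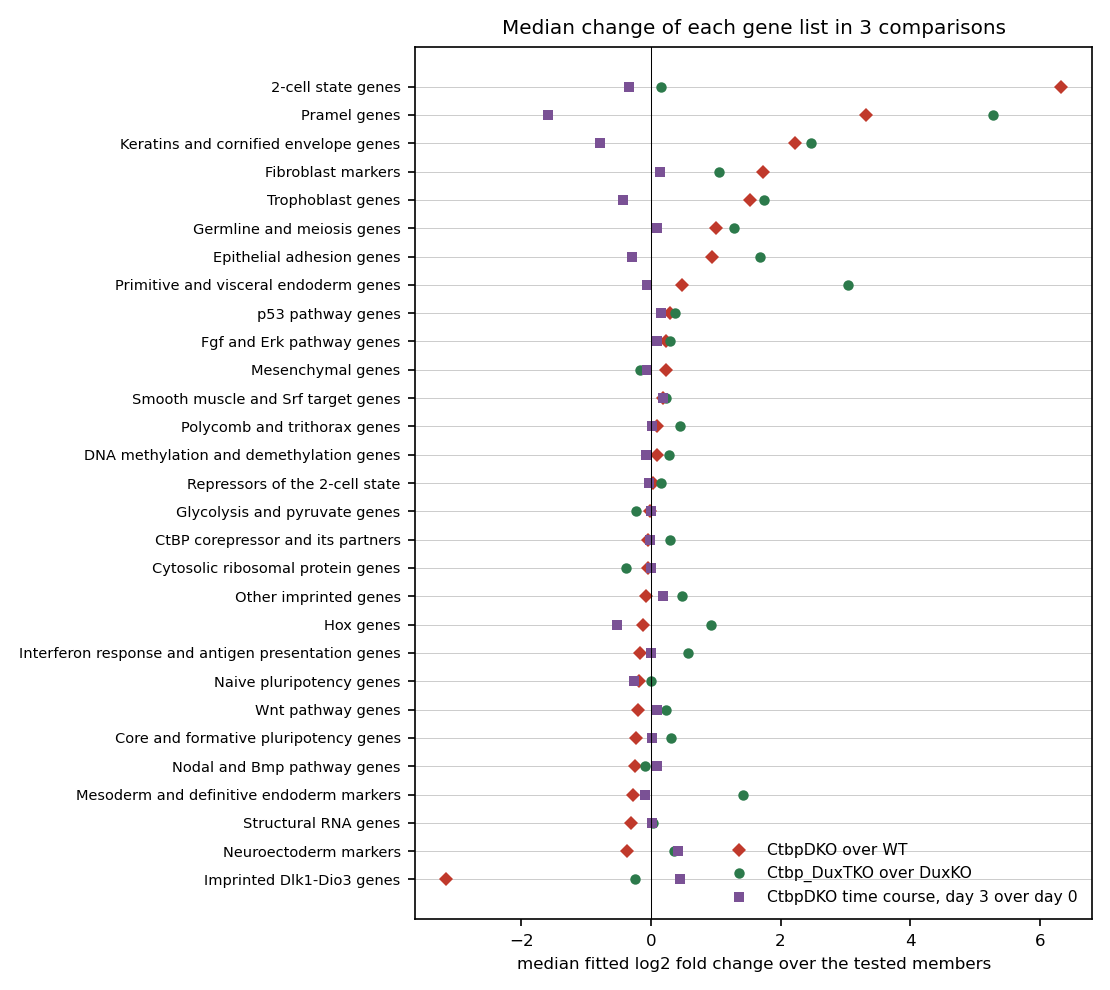
Median fitted log2 change over the tested members of each list in 3 comparisons, with CtbpDKO over WT as red diamonds, Ctbp_DuxTKO over DuxKO as green circles and day 3 over day 0 of the CtbpDKO time course as purple squares. For 2-cell state genes the red median is 6.33 and the green 0.157 (1.35 over the 21 members with a count in the green libraries), while for keratins they are 2.23 and 2.47.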

How the data were processed

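Total RNA of E14tg2a cells was measured by stranded RNA sequencing, per the labels' protocols. The submitters' processing notes name Trim Galore, HISAT2 and featureCounts and the build mm10, without versions or roles. The authors deposited raw counts per gene, 55276 genes in 12 genotype libraries and in 10 time course libraries. The RRBS libraries and the rest of the series were not analysed here. Symbols turned into dates (26 rows) were kept in the library sizes.

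Counts were tested with edgeR 4.0.16 (R 4.3.3): TMM scaling, the default expression filter (21193 genes left), a group-only quasi-likelihood fit of all 12 libraries in 6 groups of 2, a prior count of 0.125 for fold changes, and Benjamini-Hochberg adjustment over all genes tested. A gene was called at an adjusted p under 0.05. The time course table was fitted the same way (20612 genes). The difference in the effect of Ctbp loss with and without Dux was an interaction contrast in the first fit. CPM are counts per 1000000 of the TMM-scaled library size. Where a group held 0 counts, the fold is a lower bound set at 3 counts over the group, and where it held 1 to 3 counts an exact 95% binomial interval of the ratio is given. Bounds and intervals cover counting error only. Chromosomes, positions and promoters came from RefSeq GRCm38.p6 tables, which matched 18245 of the genes tested by symbol. Chromosome medians used 10816 of them. The CtbpDKO against WT contrast was tested on simulated data. There, 50 genes with a mean above 1 CPM were changed for each size of change. All other means were equal between groups. Of 180 calls 15 were false (8.33%). A true log2 change of -1 or 1 was recovered in 66% and 72% of genes, and one of -2 or 2 in 92% and 100%. In the data 26.1% of genes were called, some near 0 in WT, so these rates may not hold for them.

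The 2 libraries of each group differed by more than sampling noise (chi-square per gene 36 in WT and 49.3 in CtbpDKO). The members, the 29 gene lists and the tests were chosen with earlier results of these data known. Genes named were a fixed set of 24, up to 2 per list and direction, and over all genes the 12 per direction with the largest change and the 6 per direction with at least 100 CPM, all called and with no overlap between libraries. The mean in the higher group had to be at least 50 counts. Other list members named were chosen after their values were seen. Alternatives were DESeq2 1.42.0, other scalings and filters, a prior count of 2, a replicate block, a minimum log2 change of 1, subtraction of chromosome medians, and leaving out each library.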

Additional observations from a re-analysis of the deposited data

Results flagged for a closer look

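The effect of Ctbp loss was compared between cells with and without Dux by an interaction contrast, edgeR quasi-likelihood test over 21193 genes, of which 4124 (19.5%) passed. Among genes called higher in CtbpDKO against WT, 1073 (34.4%) had a different change without Dux, stronger in 333 and weaker or opposite in 740. Among genes called lower, 789 (32.8%) differed, stronger in 134 and weaker or opposite in 655. Both sets were selected on the CtbpDKO against WT change that the contrast subtracts. Selection alone can raise these shares and tilt the splits towards a weaker change, and its part was not tested. For 63 genes called higher no count was found in DuxKO or Ctbp_DuxTKO, among them Zscan4a, Zscan4b, Zscan4e, Usp17la, Usp17le and Duxf3. Without the genes of chromosome 8, 1649 genes called in either direction had a different change, against 1862 with them.

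Of a fixed set of 24 genes, 10 had a different change. Meg3 fell in CtbpDKO, from 17.9 and 20.02 to 1.95 and 1.90 CPM, but stood at 10.7 and 11.2 CPM in DuxKO and at 8.84 and 9.58 CPM in Ctbp_DuxTKO, a difference of 3.05 on the log2 scale. Dnmt3l rose further without Dux, from 22 and 21.7 to 264 and 249 CPM (difference 1.96). Gata6 did as well, from 0.510 and 1.43 to 11.7 and 10.7 CPM (2.17). Cdh1 went from 105 and 98.6 to 428 and 499.8 CPM (0.50). It lies on chromosome 8, whose median was 0.35 in CtbpDKO against WT and -0.14 in Ctbp_DuxTKO against DuxKO. Krt8 went from 31.1 and 27.9 to 113 and 111 CPM (-0.73), Krt18 from 8.91 and 8.84 to 27.7 and 26.5 CPM (-0.62), and Vim from 191 and 182 to 314 and 419 CPM (-1.16), each rising less than in CtbpDKO against WT. Zeb1, not called in CtbpDKO, went from 17.4 and 19.98 to 10.0 and 9.54 CPM (-1.05). Cdx2 went from 2.59 and 2.03 to 0.997 and 0.340 CPM (-3.11). For Zscan4d the fitted difference is -9.40 and rests on 0 to 2 counts per library without Dux.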

How the results depend on the processing

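The 2 libraries per group limit the calls, and depth limits the genes near 0 in WT, whose folds are bounds. Leaving out 1 library at a time gave 1992 to 2345 genes higher and 1551 to 1703 lower in CtbpDKO, against 3115 and 2407. The genes also higher, or also lower, on Ctbp loss without Dux then numbered 1285 to 1598 and 863 to 1138 (1793 and 1234), those lower or higher at day 3 numbered 141 to 311 and 54 to 158 (343 and 187), and those with a different change without Dux 1071 to 1321 (1862). The last count was 1071 without WT replicate 1, 1088 without WT replicate 2 and 1085 without CtbpDKO replicate 1. A required log2 change of 1 gave 1439 and 782, then 938 and 302, 128 and 49, and 629. Without the low-count filter 283 genes called lower were higher at day 3. Direction turned without 1 library, among named genes, only for genes that were not called: Klf4 ranged from -0.063 (without WT replicate 1) to 0.14, Zeb1 from -0.0053 (without WT replicate 2) to 0.23 and Nanog from -0.057 to 0.0046 (without CtbpDKO replicate 1). After subtraction of the chromosome median Nanog was at 0.0041, and Rpl13, on chromosome 8 and called higher (log2 change 0.31, edgeR adjusted p 0.0447), at -0.039. The cause was not tested.

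Same-numbered libraries of WT and CtbpDKO did not deviate together (r = -0.14 over 11322 genes). The replicate block gave 2913 genes higher and 2219 lower, with 1680, 1128, 301, 156 and 1604 for the other counts in the order above, and Cd74 (edgeR adjusted p 0.0528), Rmrp (0.05) and Rpl13 (0.0614) were no longer called. Crossed numbers gave 2960 and 2275.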
